A study of Mus musculus with 34 samples.

Results

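A set of 58 genes was followed that stood lower in mouse small cell lung cancer (SCLC) cells cultured with bomedemstat (BOM) than in cells cultured with the solvent DMSO. The members were chosen by measured values. Of the 20893 protein-coding genes in the counts of the 10 d cultures, 11268 had a mean of at least 4 CPM (counts per 1000000 counts of the library) in DMSO. Among these, 68 had a DMSO mean at least 3 times the BOM mean, and 10 were left out by symbol, which leaves the 58. The working name of the set speaks of a fall by a factor of 4, but 28 members reached that ratio, so it is described here by its rule of 3. Because BOM and DMSO at 10 d chose the genes, their difference there is a description and supports nothing.

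BOM is an inhibitor of LSD1, the histone demethylase encoded by Kdm1a. In the 10 d experiment RP-48OVA-LLO190 cells received DMSO (3 libraries) or BOM (2 libraries). Parallel cultures also received the cytokine interferon gamma (IFNg) for the final 48 h, again with DMSO (3 libraries) or BOM (2 libraries). A shorter culture of 96 h with DMSO or BOM used RP-116, RP-48 and G8545, with 1 library per line and treatment. RP-48OVA-LLO190 cells were also grown as flank tumors in mice with an intact immune system. Over 16 d, 5 tumors were given vehicle, 4 BOM, 5 an anti-PD1 antibody, which blocks an inhibitory receptor of T cells, and 4 both agents. A single line stands behind the 10 d and tumor results, the tumors grew in the flank and also hold host cells, and nothing in the labels tells if the libraries at 10 d are from separate cultures. The p-values at 10 d then reflect no more than how these libraries vary, and that variation may be technical.

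SCLC is a fast-growing lung cancer with neuroendocrine features that expresses many genes of neurons. LSD1 removes methyl groups from histones and acts in corepressor complexes with RCOR proteins, to which DNA-binding proteins such as GFI1 and INSM1 can bring it. Its inhibition is best known for raising genes that such complexes hold down. The members include guidance and adhesion molecules, receptors and channels, enzymes that add sugars to proteins, actin-binding proteins and motors, and genes known to respond to low oxygen.

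RefSeq promoter sequences (GRCm38.p6, which is mm10) were matched by symbol for 39 of the 58 members. The 4 upstream stretches shown here belong to members that passed the test in culture with IFNg and in both tumor comparisons described later. Each covers the 250 bases before the gene's start, 5′ to 3′ on the gene's strand, and the start lies within 100 bases of the annotated gene start. Capitals mark CAGCTG, an E-box core that stood in 16 of the 39 promoters, as CACCTG also did. CAGCTG was chosen for display after these counts were seen. All 4 members shown carry it, so they do not stand for the members that passed. Mapk13 and Tmem47, for example, passed in the same way and had no CAGCTG in their windows. Capitals further mark CACCTG in Mctp2 and TGACTCA in Cryba2, where it overlaps CAGCTG.
Mctp2, chr7:72306596-72306845, minus strand: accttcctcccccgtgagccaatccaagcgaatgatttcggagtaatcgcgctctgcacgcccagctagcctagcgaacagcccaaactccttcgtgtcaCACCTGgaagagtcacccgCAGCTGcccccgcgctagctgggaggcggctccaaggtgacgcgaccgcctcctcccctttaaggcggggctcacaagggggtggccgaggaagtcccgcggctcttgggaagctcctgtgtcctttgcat
Isl1, chr13:116309689-116309938, minus strand: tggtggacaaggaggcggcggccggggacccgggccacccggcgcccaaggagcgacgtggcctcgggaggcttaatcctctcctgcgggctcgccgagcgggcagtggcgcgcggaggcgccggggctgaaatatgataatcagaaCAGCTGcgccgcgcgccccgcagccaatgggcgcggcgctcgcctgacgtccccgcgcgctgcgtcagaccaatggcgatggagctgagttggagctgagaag
Espn, chr4:152152390-152152639, minus strand: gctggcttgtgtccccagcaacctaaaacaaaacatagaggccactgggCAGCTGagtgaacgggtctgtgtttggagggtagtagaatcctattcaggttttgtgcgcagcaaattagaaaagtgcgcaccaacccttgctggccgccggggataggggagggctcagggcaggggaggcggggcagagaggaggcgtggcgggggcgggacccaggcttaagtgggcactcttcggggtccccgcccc
Cryba2, chr1:74893144-74893393, minus strand: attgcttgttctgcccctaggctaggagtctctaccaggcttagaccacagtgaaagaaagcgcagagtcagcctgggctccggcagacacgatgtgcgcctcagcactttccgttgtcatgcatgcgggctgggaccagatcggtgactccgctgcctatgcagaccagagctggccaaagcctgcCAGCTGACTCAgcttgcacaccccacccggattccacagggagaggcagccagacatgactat

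Over the 300 bases from 250 before to 50 after the start, CAGCTG was present in 41.0% of the member promoters, against 16.3% of all 32851 promoters in the reference and 15.0% of 11528 promoters of protein-coding genes with at least 4 CPM in DMSO. CACCTG, searched on both strands like every motif here, stood in 41.0% of the member promoters and in 20.2% and 17.8% of the other sets. TATAAA was found in 23.1%, 13.6% and 6.48%. The shares for AATCAC, the core that GFI1 binds, were 7.69%, 10.4% and 8.20%, and the longer TAAATCAC was in 0 of 39. CATCTG was in 7.69%, 17.2% and 10.9%, TGACTCA in 7.69%, 5.20% and 3.31%, and TGACGTCA in 5.13%, 1.79% and 3.17%. The member promoters held a median of 14 CG dinucleotides, the promoters of all genes 7 and those of the expressed protein-coding genes 21. Of the 39 member windows, 25 had their start within 100 bases of the annotated gene start, and that of Cntn4 lay 441105 bases from it. The 32851 promoters belong to 27025 genes, so the other sets can count a gene more than once. These matches describe letters in 1 window per member and show no binding.

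The libraries held 5.90 to 9.04 M counts at 10 d, 8.71 to 9.97 M at 96 h and 5.64 to 82.2 M in the tumors, where vehicle tumor 1 alone was above 13.2 M. Kdm1a, the gene of the drug's target, was expressed in every library, between 178 and 233 CPM at 10 d. Some libraries stand apart for the members. Vehicle tumors 1 and 2 lay between the other vehicle tumors and the BOM tumors for most members that BOM changed, and the tumor results are given with and without them. In DMSO cultures 1, 2 and 3, Il10ra had 0.279, 0 and 549 CPM, and all 7 other libraries at 10 d had 0. Il10ra, the gene of an interleukin receptor chain, is thus a member through 1 library, and it did not pass the filter on low counts.

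For 57 of the 58 members every DMSO library at 10 d lay above every BOM library, and Il10ra was the exception. These libraries chose the members, so this separation was largely set by the rule. Its share over all genes was not computed. Chd3, Gabrd, Tmem184a, Rrh and Arhgap33os lay just inside the threshold, with ratios of 3.01 to 3.07. Grasp, Gria3, Snx33, Cecr2 and Lrp4 lay just outside it, with ratios of 2.95 to 2.99. In this comparison, which chose the members, 56 of the 57 members tested were called lower and Rrh was not, where 8.25% of all genes tested were called lower. Leaving out 1 of the 5 libraries at a time gave sets of 60 to 73 genes, which held 51 to 56 of the 58.

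**Figure D1:**
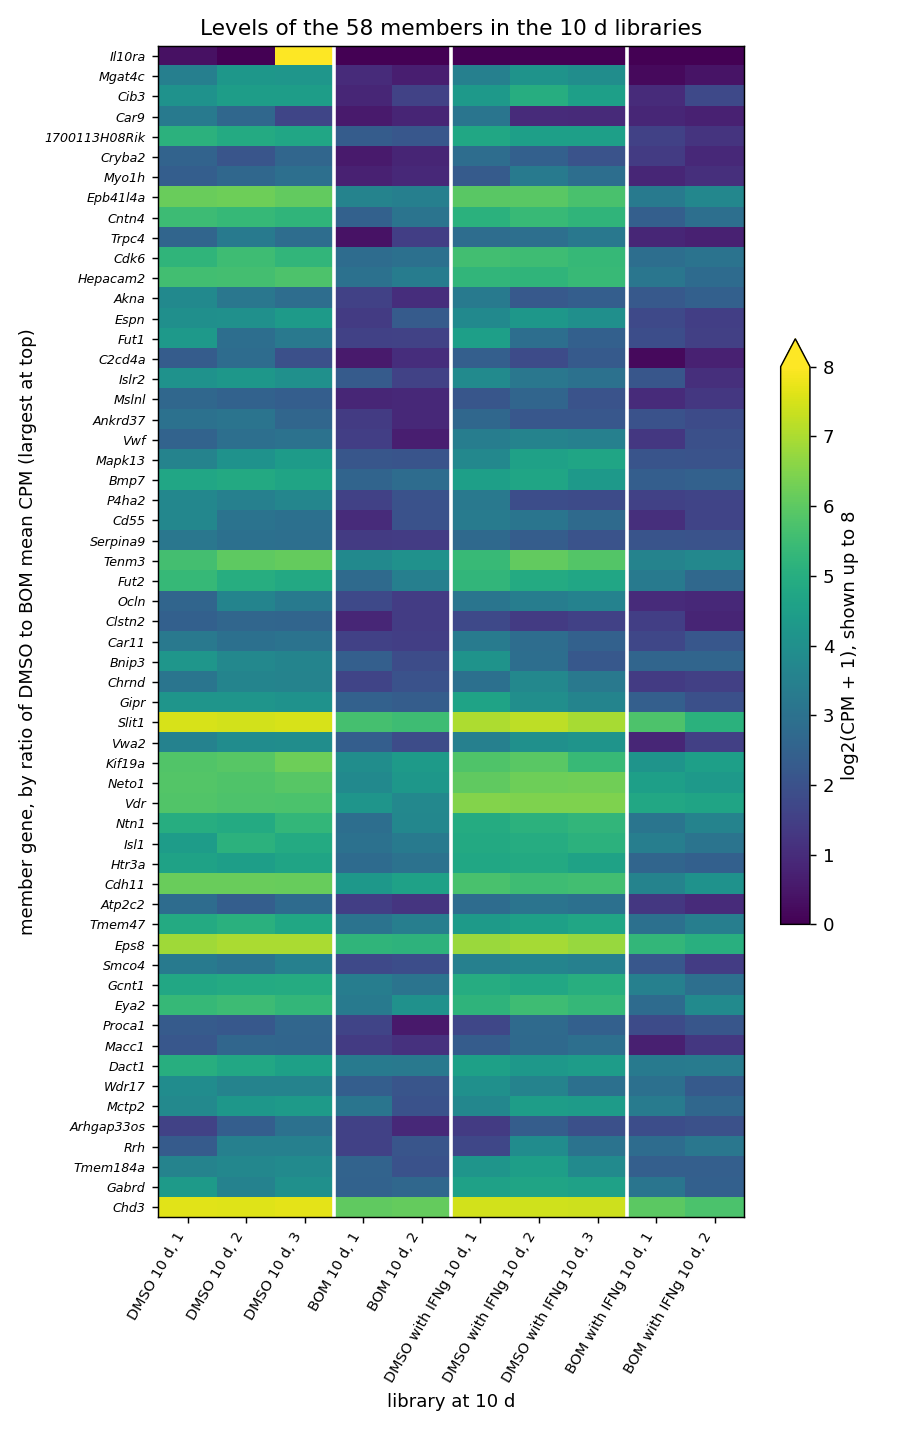
Level of each of the 58 members (rows, ordered by the ratio that chose them) in the 10 libraries at 10 d (columns), as log2 of CPM plus 1 by colour, shown up to 8. The DMSO libraries without and with IFNg are the brighter blocks in most rows, Il10ra is bright in 1 library only, and Rrh and Arhgap33os near the bottom show no such blocks with IFNg.

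The 5 libraries with IFNg were not used by the rule, and there the members stood lower with BOM again. Of the 57 members tested, 47 fell and none rose, with a median log2 fold change of -2.06 against -0.01 over all 15230 genes tested. Among all genes, 10.1% were called lower and 13% higher (1539 and 1979 genes). With scaling by library size alone the split was 1072 lower and 2287 higher, and 47 members still passed. All 57 members had a fold change below 0, from -5.65 (Mgat4c) to -0.06 (Arhgap33os, which was at 0.00 with scaling by library size alone). In 50 of these 57 every BOM library lay below every DMSO library, as in 18.3% of all genes tested. Same-numbered DMSO libraries without and with IFNg deviated together (r 0.119 to 0.393 across genes, 3 pairs), as did those of BOM (0.2). With 2 libraries in each BOM group, both BOM pairs must give the same r. For BOM with IFNg and DMSO without IFNg, r was 0.114 to 0.189. The libraries with IFNg may thus not be fully separate from those of the rule. Calls here and later are those of edgeR's quasi-likelihood test, with adjusted p-values below 0.05. The members that did not pass were Car9, Akna, Ankrd37, P4ha2, Serpina9, Clstn2, Bnip3, Proca1, Arhgap33os and Rrh.

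Among glycosyltransferases, which build sugar chains on proteins and lipids, 4 of 4 fell with IFNg. Mgat4c (ENSMUSG00000019888.16, chromosome 10, 101681487 to 102391469), of the family that branches N-linked sugar chains, had 10.1, 17.8 and 17.5 CPM in the 3 DMSO cultures, 0.974 and 0.609 in BOM, 10.2, 16.1 and 14.2 in DMSO with IFNg and 0.161 and 0.332 in BOM with IFNg. Both BOM groups lay far below both DMSO groups, and with IFNg the log2 fold change was -5.65 ± 0.50 (SE, adjusted p = 2.32e-07). Fut2, a fucosyltransferase that makes the H blood group antigen in secretions, had 40.1, 30.8 and 27.3 CPM in DMSO, 5.84 and 10.1 in BOM, 37.8, 28.4 and 25.8 in DMSO with IFNg and 8.86 and 5.53 in BOM with IFNg (-2.19 ± 0.26, adjusted p = 6.01e-06). Its relative Fut1 fell by 2.33 on the log2 scale, with a DMSO replicate 1 that stood above the others in both settings (18.7 against 6.38 and 8.31 CPM without IFNg). Gcnt1, which starts branches on O-linked chains, fell by 1.89.

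Of 9 genes for axon guidance, adhesion and junctions 8 fell with IFNg, and the synaptic adhesion gene Clstn2 (-0.75) did not pass. Slit1 (ENSMUSG00000025020.11, chromosome 19, 41600257 to 41743665) encodes a secreted ligand of ROBO receptors that repels growing axons. It was the most abundant member per kilobase of transcript after Il10ra, with 184, 174 and 182 CPM in DMSO, 49.3 and 45.1 in BOM, 129, 148 and 123 in DMSO with IFNg and 53.6 and 33.7 in BOM with IFNg. The groups did not overlap, and with IFNg the log2 fold change was -1.69 ± 0.14 (adjusted p = 8.88e-08). The contactin Cntn4 (ENSMUSG00000064293.14, chromosome 6, 105677660 to 106699310), a neuronal adhesion protein, had 43.7, 40.3 and 36.8 CPM in DMSO and 4.54 and 7.47 in BOM, and with IFNg 33.3, 40.6 and 36.7 against 4.35 and 6.63 (-2.77 ± 0.21, adjusted p = 3.17e-08). Hepacam2 (ENSMUSG00000044156.14, chromosome 6, 3457096 to 3498298), an adhesion protein of the immunoglobulin superfamily, had 37.4, 36.2 and 40.8 CPM in DMSO with IFNg and 7.89 and 5.97 in BOM with IFNg (-2.55 ± 0.18). The other 5 that fell were the tight junction gene Ocln (-3.37), the teneurin Tenm3 (-2.29), Islr2 (-2.22), the netrin Ntn1 (-1.91) and the cadherin Cdh11 (-1.86), each without overlap between the groups with IFNg. The count of Tenm3 is uncertain, since a transcript overlaps it on the opposite strand and the library kit does not mark the strand.

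All 6 receptors and channels that were tested fell with IFNg, from -3.31 to -1.90. Htr3a, a subunit of the serotonin-gated ion channel, had 23.5, 21.3 and 24.3 CPM in DMSO, 6.004 and 7.01 in BOM, 26.3, 28.1 and 23.4 in DMSO with IFNg and 5.15 and 4.53 in BOM with IFNg. The 4 BOM libraries stood together below the 6 DMSO libraries, and the log2 fold change with IFNg was -2.49 ± 0.19 (adjusted p = 3.5e-08). The others were the cation channel Trpc4 (-3.31), the acetylcholine receptor subunit Chrnd (-2.42), the incretin receptor Gipr (-2.29), the GABA receptor subunit Gabrd (-2.06) and the glutamate receptor partner Neto1 (-1.90).

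The 4 genes for transcription and chromatin fell as well. Chd3 (ENSMUSG00000018474.18, one of 3 members whose versioned ID was not in the GENCODE M21 annotation used for coordinates), a remodelling ATPase of the NuRD corepressor complex, had 199.9, 195 and 201 CPM in DMSO, 64.6 and 67.7 in BOM, 175, 172 and 167 in DMSO with IFNg and 62.3 and 51.7 in BOM with IFNg (-1.66 ± 0.10, adjusted p = 1.71e-09). Its replicates varied by little next to the gap between the groups. Isl1 (ENSMUSG00000042258.13, chromosome 13, 116298281 to 116309689), a homeodomain factor of motor and sensory neurons and endocrine cells, fell by 1.91 with IFNg, Eya2, a developmental coactivator, by 2.06 and Vdr, the vitamin D receptor, by 1.86. For Vdr the level was 56.1, 53.2 and 52.4 CPM in DMSO and 90.6, 86.9 and 87.4 in DMSO with IFNg, and 16.9 and 12.2 in BOM and 26.6 and 24.5 in BOM with IFNg. The levels with IFNg were thus the higher ones both with and without BOM.

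All 5 cytoskeletal genes fell with IFNg: the actin-bundling Espn (-2.94), the class I myosin Myo1h (-2.73), the FERM protein Epb41l4a (-2.52), the actin regulator Eps8 (-1.74) and the kinesin Kif19a (-1.49). Epb41l4a had 70.5, 74.2 and 66.3 CPM in DMSO, 10.9 and 9.90 in BOM, 61.1, 60.7 and 50.9 in DMSO with IFNg and 8.70 and 11.9 in BOM with IFNg. The count of Myo1h is uncertain, because Kctd10 overlaps it on the opposite strand at 33.9 CPM in DMSO. Cdk6, a kinase that drives entry into the cell cycle, had 36.4, 44.4 and 37.1 CPM in DMSO and 6.17 and 6.70 in BOM, and with IFNg 46.9, 44.7 and 40.1 against 6.44 and 7.30 (-2.73 ± 0.17, adjusted p = 2.92e-09). The kinase Mapk13 (-2.73) and the WNT regulator Dact1 (-1.25) fell too.

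Of 6 secreted and surface proteins 5 fell with IFNg: Vwa2 (-3.35), the growth factor Bmp7 (-2.35), the clotting factor Vwf (-2.23), the complement inhibitor Cd55 (-2.21) and Mslnl (-1.71). The protease inhibitor family member Serpina9 had 7.96, 6.71 and 6.61 CPM in DMSO and 1.62 and 1.68 in BOM, while with IFNg it had 5.68, 4.15 and 3.16 against 3.22 and 3.10, which overlap. Of the 16 members outside these groups 12 fell, among them the calcium-binding Cib3 (-3.76) and the transcript 1700113H08Rik (-3.93). Rrh, an opsin-family gene, had 2.24, 13.7 and 7.27 CPM in DMSO with IFNg and 6.12 and 7.96 in BOM with IFNg. Akna, an AT-hook protein, had 8.67, 3.67 and 4.27 and 3.71 and 4.42, with a DMSO replicate 1 above the rest.

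Of the 4 members known as hypoxia-induced genes, none passed in the libraries with IFNg, by edgeR. Car9, a carbonic anhydrase on the cell surface, had 8.65, 5.40 and 2.20 CPM in DMSO, 0.487 and 0.762 in BOM, 7.62, 0.958 and 0.948 in DMSO with IFNg and 0.805 and 0.663 in BOM with IFNg. In both DMSO groups replicate 1 was the highest, and with IFNg the other 2 DMSO libraries lay just above the BOM libraries. Bnip3, a mitophagy receptor, had 17.6, 12.3 and 11.2, 4.38 and 2.59, 16.4, 6.39 and 3.63 and 5.15 and 5.09 CPM in the same order of groups. With IFNg the log2 fold changes were -2.19 ± 0.88 for Car9 (adjusted p = 0.0845, and 0.0375 and 0.0423 without DMSO with IFNg replicate 2 or 3), -1.23 ± 0.47 for the collagen prolyl hydroxylase P4ha2, -0.86 ± 0.44 for Bnip3 and -0.64 ± 0.36 for Ankrd37. The summed level of 20 further hypoxia-induced genes, a list drawn up after the members were seen, was 1266 to 1737 CPM in DMSO, 1078 to 1255 in BOM, 936 to 1487 in DMSO with IFNg and 1273 to 1300 in BOM with IFNg, with DMSO replicate 1 highest both times. Of the 19 of them tested, 13 were called lower and 2 higher with BOM without IFNg (median -0.75), and 6 fell and 2 rose among the libraries with IFNg (median -0.27). Over all genes tested the shares were 8.25% lower and 12.1% higher without IFNg, and 10.1% and 13% with it. With the replicate number as a block Car9 passed with IFNg (adjusted p = 0.00525). The part of the hypoxia response in these 4 members was not tested.

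At 96 h no gene passed the test, 0 of 53 members among 0 of 13333 genes, either lower (0%) or higher (0%). At an unadjusted p under 0.05 there were 16 members lower, and 812 genes in either direction. These counts are not alike, since the share of all genes lower at that p was not computed. DESeq2 called 0 members among 1 gene lower and 49 higher, and limma voom 1 member lower among 2 genes lower and 28 higher. Without G8545 the edgeR test called 7 members lower, among 65 genes lower and 84 higher. The members' fitted log2 fold changes had a median of -0.53, against -0.01 for all genes, with 44 below 0 and 9 above. The lowest adjusted p among them was that of Epb41l4a (0.293). The members not tested for low counts were Il10ra, 1700113H08Rik, Atp2c2, Proca1 and Arhgap33os.

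The 3 lines differed in these values, each of which rests on 1 library per treatment and has no replicate check. In RP-116, 33 members had at least 4 CPM in DMSO, the median log2 difference (of CPM plus 1) was -0.12 and 0 stood at least 2-fold lower with BOM, against 0.492% of all genes at that level. In RP-48 there were 40 such members, the median was -0.72 and 17 stood at least 2-fold lower, against 0.985% of all genes. In G8545 there were 37, the median was -0.81, 15 stood at least 2-fold lower, against 2.495% of all genes, and 1, Vwa2, at least 2-fold higher. The share of all genes at least 2-fold higher was not computed. The level of 4 CPM was asked of the DMSO library alone, for members and all genes alike, which favours falls over rises.

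**Figure D2:**
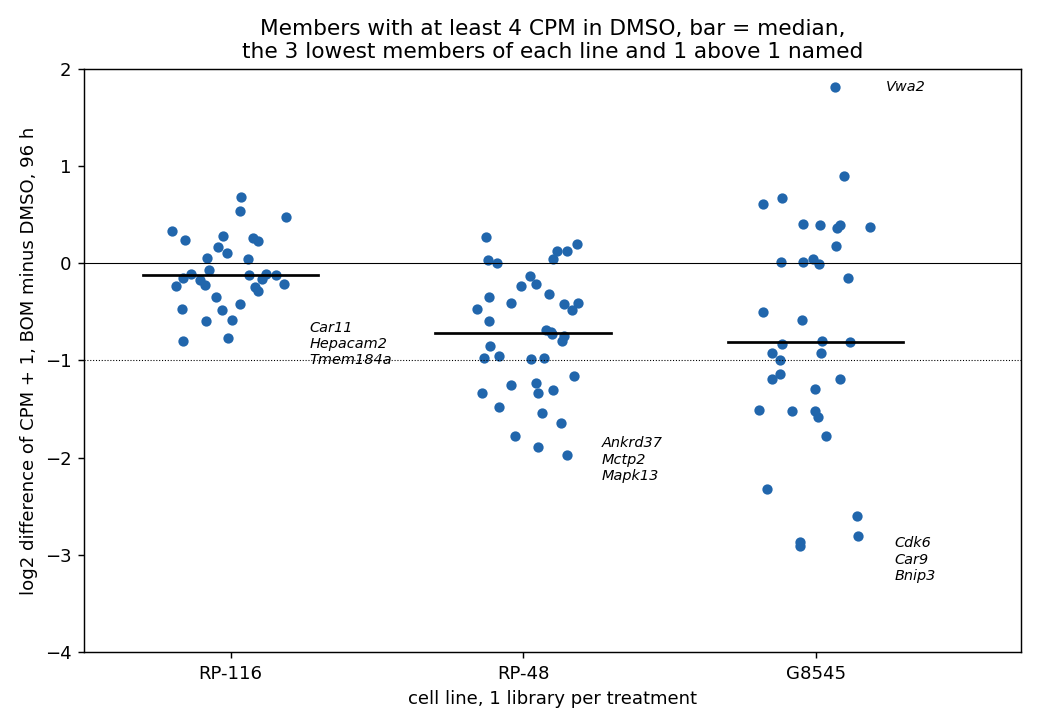
Log2 difference of CPM plus 1 between BOM and DMSO at 96 h (vertical axis) for each member with at least 4 CPM in DMSO, by cell line, with a bar at the median and a dotted line at a 2-fold fall. The points of RP-116 centre near 0 (median -0.12), and those of RP-48 and G8545 lie lower (medians -0.72 and -0.81), with Vwa2 the high point of G8545.

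The lines also differed member by member. Cdk6 went from 163 to 22.4 CPM in G8545 and from 7.66 to 3.81 in RP-48, and it stood at 0 to 0.113 in RP-116. Mctp2, a calcium-sensing membrane protein, went from 34.6 to 8.63 in RP-48, from 174 to 137 in RP-116 and, in the other direction, from 9.04 to 17.7 in G8545. Hepacam2 went from 64.4 to 37.4 CPM in RP-116, 77.2 to 43.8 in RP-48 and 1.91 to 0 in G8545. Epb41l4a stood lower with BOM in all 3 lines, at 66.8 to 49.6, 20.2 to 9.93 and 71.3 to 35.2 CPM. Slit1 did not stand lower in any, at 53.8 to 75, 177 to 178 and 141 to 159.7 CPM.

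The hypoxia-induced members had their largest differences in G8545, where Car9 went from 9.94 to 0.504 CPM, Bnip3 from 58.8 to 6.95 and Ankrd37 from 23.3 to 3.02. In that line the summed level of the 20 further hypoxia-induced genes was 3599 CPM in DMSO and 1118 in BOM. It was 2272 and 1937 in RP-48, and 1329 and 1584 in RP-116. The part of this in the G8545 values was not tested.

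In tumors the members split. Against vehicle tumors, BOM tumors had 27 of 51 tested members lower and 3 higher, with a median log2 fold change of -0.63, where 8.63% of all 14332 genes were called lower and 5.9% higher. Between BOM plus anti-PD1 and anti-PD1 tumors, which share no library with the first comparison, 28 members fell and 4 rose, with a median of -0.63, where 16.6% of all genes were called lower and 15.8% higher. Over all genes the medians were -0.02 and -0.01. Without vehicle tumors 1 and 2 the first comparison gave 30 lower and 6 higher (11.6% and 11.7% of all genes) with a median of -0.75, and the second 28 lower and 6 higher (15.1% and 16.7%). These tumors were left out after their values were seen, which favours calls against vehicle. Of the 51 members tested, every BOM tumor lay below every vehicle tumor for 23 and above for 3, against 8.55% and 7.64% of all genes. With anti-PD1 these were 22 and 3 members, against 10.6% and 13.3% of all genes. In bulk tumors, fewer cells of a type and less RNA per cell cannot be told apart.

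Of the 50 members tested in culture and tumors, 21 passed as lower in all 3 of these comparisons, with IFNg in culture and in both tumor pairs: Mgat4c, Cib3, 1700113H08Rik, Cryba2, Myo1h, Epb41l4a, Cntn4, Trpc4, Hepacam2, Espn, Fut1, Vwf, Mapk13, Kif19a, Neto1, Isl1, Htr3a, Tmem47, Eps8, Mctp2 and Gabrd. Of all genes tested in both settings, 2.21% passed in this way. The 21 include all 5 cytoskeletal genes. Against vehicle, the call of Mgat4c ended with DESeq2 (adjusted p = 0.0529), with limma voom (0.0795), with vehicle tumor 1 thinned to the median depth (0.0764), and without any 1 of vehicle tumors 4 and 5 and BOM tumors 2, 3 and 4 (0.0513 to 0.0685). That of Vwf ended without any 1 of vehicle tumors 3 to 5 and BOM tumors 1 to 3 (0.0535 to 0.104). With limma voom the calls of Cib3 (0.0556) and Trpc4 (0.104) against vehicle ended, and that of Espn ended without BOM tumor 2 (0.0521). The alternatives were not run gene by gene for 1700113H08Rik, Fut1, Mapk13, Neto1 and Tmem47. A further 2, Ankrd37 and Serpina9, passed in both tumor comparisons but not in culture with IFNg. In both tumor comparisons 23 of 51 were lower and 3 higher, against 7.11% and 4.9% of all genes, and 9 were lower in just 1 of them.

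Cntn4 showed the largest fall of the members in tumors. It had 9.99, 19.3, 39.6, 41.99 and 34.8 CPM in the 5 vehicle tumors, 0.270, 0.370, 0.272 and 0.127 in the BOM tumors, 32.9, 44.5, 25.2, 31.8 and 31.1 in the anti-PD1 tumors and 0.280, 0.359, 2.21 and 0.710 in the BOM plus anti-PD1 tumors. Every BOM-treated tumor lay below every other, with vehicle tumors 1 and 2 below the other vehicle tumors, and the log2 fold changes were -6.73 ± 0.60 (adjusted p = 7.6e-06) and -5.22 ± 0.50 (adjusted p = 8.74e-06). Hepacam2 had 39.4, 65.5, 148, 129 and 185 CPM in vehicle, 3.64, 6.67, 11.99 and 1.78 in BOM, 159, 172, 127, 125 and 144 in anti-PD1 and 10.4, 1.56, 6.62 and 7.38 in BOM plus anti-PD1 tumors. Its fold changes were -4.23 ± 0.51 and -4.54 ± 0.51, again with no overlap.

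Mctp2 (ENSMUSG00000032776.9, chromosome 7, 72077830 to 72306608) had 10.8, 19.3, 30.9, 35.1 and 31.8 CPM in vehicle, 2.43, 0.864, 2.32 and 2.80 in BOM, 35.2, 43.6, 23.2, 35.96 and 32.1 in anti-PD1 and 3.79, 1.32, 4.02 and 1.99 in BOM plus anti-PD1 tumors. The groups did not overlap in either pair, and the fold changes of -3.59 ± 0.40 and -3.64 ± 0.39 stand beside -1.39 ± 0.33 in culture with IFNg. That culture call rests on BOM with IFNg replicate 2, since without it the adjusted p was 0.0985, and the same held for Cryba2 (0.0804). Isl1 had 5.26, 7.07, 14.5, 12.1 and 12.1 CPM in vehicle, 2.16, 2.22, 2.18 and 2.29 in BOM, 12.1, 13.02, 12.3, 13.9 and 14.2 in anti-PD1 and 1.12, 2.03, 1.69 and 0.852 in BOM plus anti-PD1 tumors (-2.18 ± 0.28 and -3.20 ± 0.30, adjusted p = 0.000215 and 8e-06). Every BOM-treated tumor lay below every tumor without BOM for Isl1 as well.

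Epb41l4a fell from 30.3, 39.9, 66.2, 74.03 and 80.8 CPM in vehicle to 11.7, 14.4, 15.1 and 15.4 in BOM tumors, and from 73.8, 78.7, 81.1, 63.6 and 82.6 in anti-PD1 to 11.1, 13.6, 10.1 and 10.5 in BOM plus anti-PD1 tumors (-2.03 ± 0.24 and -2.76 ± 0.24). Among the receptors, Htr3a fell by 1.67 and 1.56 on the log2 scale, Trpc4 by 1.67 and 1.54, Neto1 by 1.48 and 1.66 and Gabrd by 1.34 and 0.85, and Gipr fell against vehicle only (-0.92, and -0.17 with anti-PD1). The call of Gabrd with anti-PD1 ended without any 1 of 4 tumors (anti-PD1 tumors 4 and 5 and BOM plus anti-PD1 tumors 2 and 3). Eps8, Espn and Kif19a fell by 0.58 to 1.54 in the 2 pairs. Tmem184a (-0.47, adjusted p = 0.0457) fell against vehicle, a call that ended in 22 of the alternative analyses. The count of Tmem184a is uncertain, since Mafk overlaps it on the opposite strand, at 11.5 CPM in DMSO at 10 d.

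**Figure D3:**
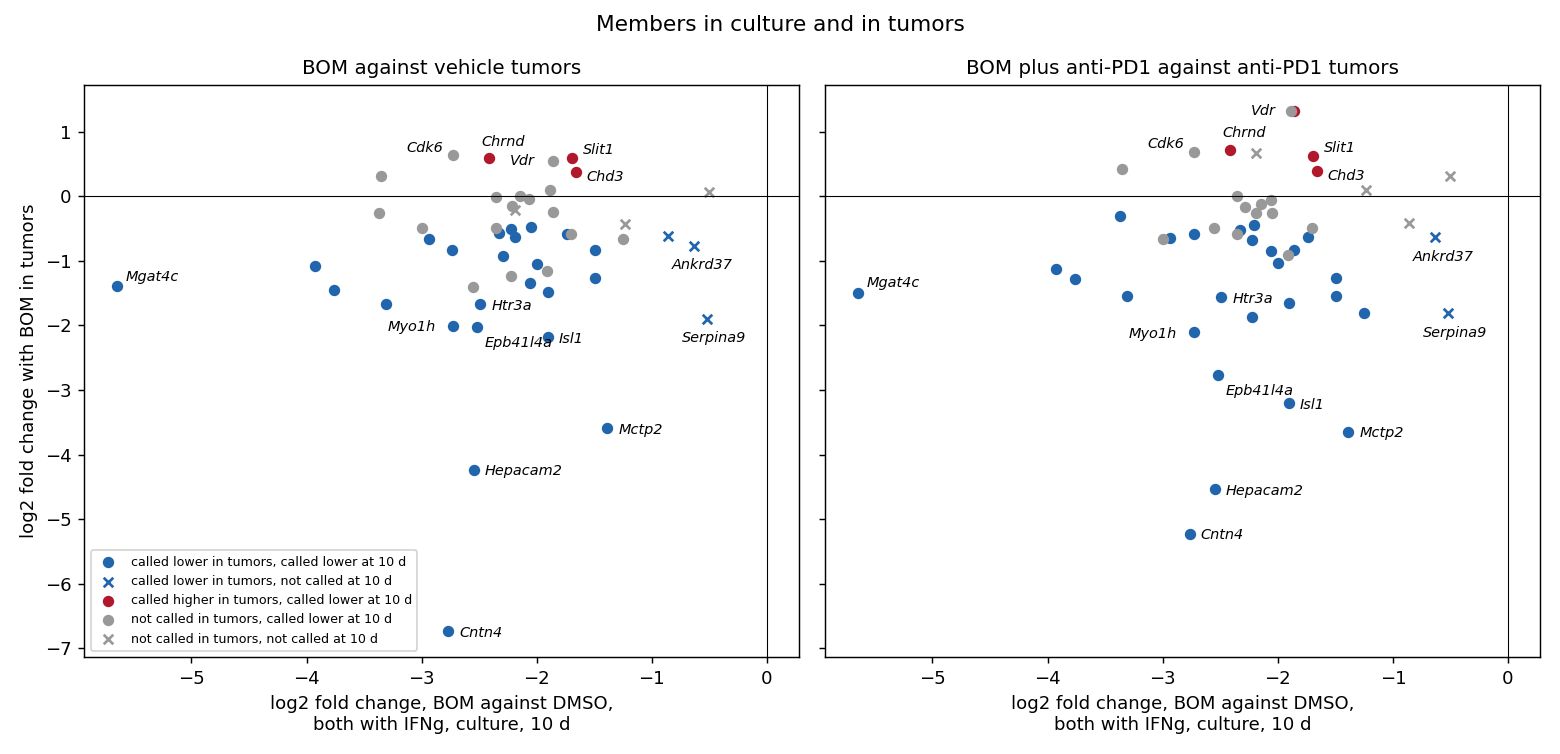
Each point is a member tested in both settings, with the log2 fold change of BOM against DMSO in culture with IFNg on the horizontal axis and that of BOM in tumors on the vertical axis, without anti-PD1 (left) and with it (right). All points lie left of 0, while they spread from below -5 to above 0 vertically, with Chd3, Slit1 and Chrnd above 0 in both panels and called higher.

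Chd3, Slit1 and Chrnd rose in both tumor comparisons, opposite to their direction in culture. Chd3 had 279, 253, 255, 253 and 237 CPM in vehicle, 351, 354, 311 and 322 in BOM, 208, 253, 217, 226 and 226 in anti-PD1 and 330.4, 289, 299 and 291 in BOM plus anti-PD1 tumors. The groups did not overlap, with fold changes of 0.38 ± 0.07 (adjusted p = 0.00164) and 0.40 ± 0.07 (adjusted p = 0.00028), beside -1.66 ± 0.10 in culture with IFNg. Slit1 had 121, 131, 78.9, 99.6 and 90.6 CPM in vehicle, 151, 195, 150 and 142 in BOM, 74.6, 112, 94.1, 78.5 and 99.7 in anti-PD1 and 152, 148, 110.4 and 169 in BOM plus anti-PD1 tumors (0.59 ± 0.15 and 0.63 ± 0.16, adjusted p = 0.0169 and 0.00518). The Slit1 groups did not overlap against vehicle and met at 110.4 and 112 CPM with anti-PD1. Without BOM tumor 2 its rise against vehicle did not pass (adjusted p = 0.0615). Chrnd had 89.2, 91.6, 60.8, 55.02 and 69.6 CPM in vehicle, 116, 99.7, 99.2 and 133 in BOM, 50.96, 62.9, 64.6, 63.6 and 70.7 in anti-PD1 and 94.8, 102, 102 and 120 in BOM plus anti-PD1 tumors (0.59 ± 0.14 and 0.72 ± 0.14).

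Vdr had 22.1, 23.4, 7.98, 9.81 and 11.96 CPM in vehicle, 19.7, 31.5, 17.6 and 22.1 in BOM, 14.1, 8.51, 14.95, 9.31 and 7.89 in anti-PD1 and 32.7, 35.6, 13.4 and 29.1 in BOM plus anti-PD1 tumors. It rose with anti-PD1 (1.32 ± 0.33, adjusted p = 0.00587) and did not pass against vehicle (0.54 ± 0.32, adjusted p = 0.287), where vehicle tumors 1 and 2 stood as high as BOM tumors. Without these 2 tumors Vdr, Cdk6 and Gcnt1 rose in both comparisons (1.18, 1.03 and 1.30 against vehicle, adjusted p = 0.0116, 0.00924 and 0.0260). The 2 tumors were left out after their values were seen to lie toward the BOM tumors. Leaving them out thus favours calls against vehicle, and these calls are a description. With all tumors Cdk6 stood at 0.64 ± 0.26 and 0.69 ± 0.26 (adjusted p = 0.0513, and 0.0228 to 0.0489 in 11 alternative analyses with anti-PD1) and Gcnt1 at 0.10 ± 0.49 and 1.32 ± 0.52. The difference between culture and tumors was not tested, since the tables were normalized separately, and the cells differ in time, RNA type (total RNA in culture at 10 d, polyadenylated RNA in tumors) and surroundings.

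**Figure D4:**
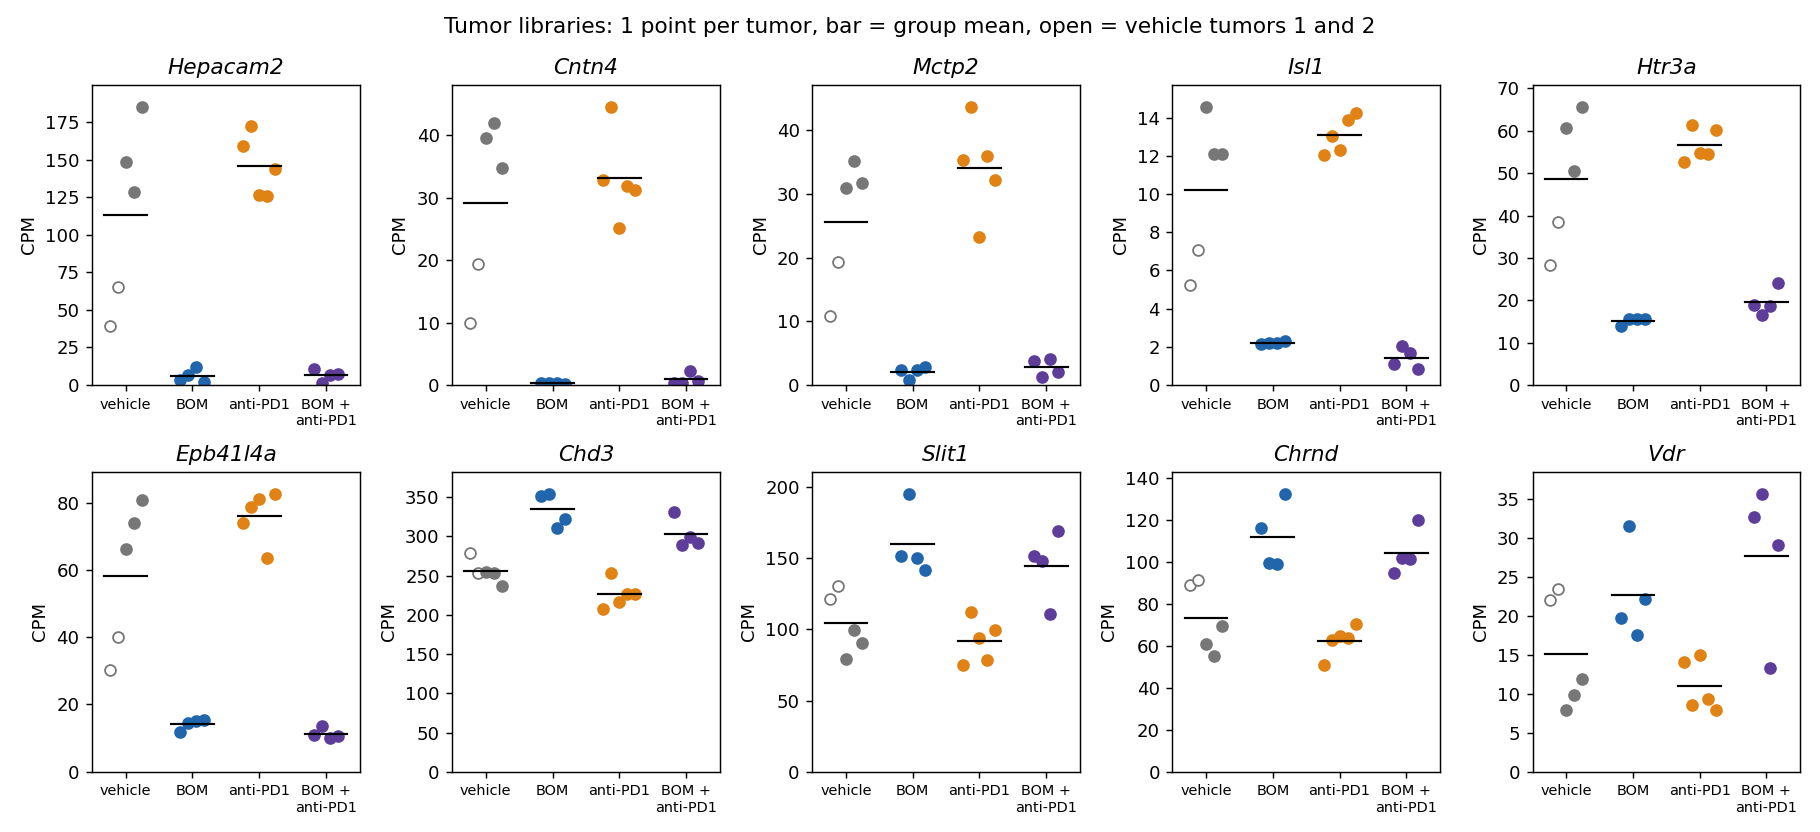
CPM (vertical axes from 0) of 10 members in every tumor, by treatment, with a bar at the group mean and open circles for vehicle tumors 1 and 2. For Hepacam2, Cntn4, Mctp2, Isl1, Htr3a and Epb41l4a all BOM-treated tumors lie below all others and the open circles lie lowest among the vehicle tumors, while Chd3, Slit1, Chrnd and Vdr have higher means with BOM.

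A further group fell in culture with IFNg and passed in neither tumor comparison: Cdk6, C2cd4a, Mslnl, Bmp7, Vwa2, Ntn1, Atp2c2, Smco4, Gcnt1, Eya2 and Macc1 (11 members). Bmp7 had 112, 125, 111, 113 and 121 CPM in vehicle and 88.9, 142, 115 and 119.7 in BOM tumors, and Eya2 92.5, 109, 107, 95.8 and 105 and 86.99, 94.7, 114 and 103. For both genes the groups overlapped widely (-0.01 ± 0.13 and -0.04 ± 0.09). The 7 members not tested in tumors for low counts were Tenm3, Clstn2, Car11, Proca1, Wdr17, Arhgap33os and Rrh. Tenm3, at 41.4 to 68.2 CPM in the DMSO cultures, had 0.401, 0.0760, 0.177, 1.99 and 0.137 CPM in vehicle tumors. Of the hypoxia-induced members, Ankrd37 (-0.76 and -0.64) fell in both tumor comparisons and Bnip3 (-0.61) against vehicle only, while 8 of the 20 further hypoxia-induced genes fell and 1 rose against vehicle, and 6 fell and 1 rose with anti-PD1. Over all genes tested, 8.63% fell and 5.9% rose against vehicle, and 16.6% and 15.8% with anti-PD1. The count of Ankrd37 is uncertain, since Ufsp2 overlaps it on the opposite strand.

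The position of vehicle tumors 1 and 2 held across members. Of the 28 members that fell with BOM plus anti-PD1, vehicle tumor 1 lay below all of vehicle tumors 3 to 5 for 26 and vehicle tumor 2 for 22. Of the 4 that rose, tumor 1 lay above them for 4 and tumor 2 for 3. These counts were made for members only, without the share over all genes, so they do not set the members apart from other genes. Vehicle tumors 1 and 2 also stood above vehicle tumors 3 to 5 in summed T cell markers (23.4 and 16.0 against 3.57 to 8.58 CPM), skeletal muscle markers (144 and 72.5 against 8.34 to 24.4) and keratinocyte markers (472 and 490.1 against 365 to 397). In macrophage and monocyte markers tumor 1 had 1491 CPM, tumor 2 560.4 and the others 518 to 604.

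Some marker lists moved with BOM in the tumors. The keratinocyte list summed to 365 to 490.1 CPM in vehicle and 542 to 618 in BOM tumors, and to 333 to 479.9 in anti-PD1 and 535 to 678 in BOM plus anti-PD1 tumors (4 or 5 of 6 markers with counts, Krt1 at 0). This list was at 66.8 to 729.7 CPM in the 96 h DMSO cultures too. The Schwann cell and nerve list (5 of 5) summed to 209.5 to 257 in vehicle and 183 to 207 in BOM tumors, and to 213 to 260.3 and 181 to 203 in the anti-PD1 pair. It was also at 264 to 317 CPM in the 96 h DMSO cultures. At 10 d it was at 133 to 146 CPM in DMSO and, in the other direction from the tumors, at 167 to 169 in BOM. T cell markers (6 of 7, Trac at 0) overlapped, at 3.57 to 23.4 and 6.79 to 24.8 CPM, and at 2.15 to 14.3 and 12.9 to 29.4 in the anti-PD1 pair. Macrophage markers (8 of 8) summed to 518 to 1491 and 476 to 1194 CPM, and to 233 to 1119 and 566 to 1264. SCLC markers (8 of 8) summed to 2736 to 3259 and 2720 to 3141 CPM, and to 2728 to 3119.9 and 2517 to 2922. The part of host cells in the members' values was not tested.

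Anti-PD1 alone called 0 of 51 members against vehicle, among 0 of 14332 genes lower (0%) or higher (0%) by edgeR. At an unadjusted p under 0.05 there were 1 member lower, and 1411 genes in either direction. The test of whether BOM acted differently with anti-PD1 than without it called 0 members and 0 genes (0%). There 2 members had a negative difference at an unadjusted p under 0.05, and 1258 genes passed that level in either direction. The share of all genes in the members' direction was not computed for these tests. DESeq2 called 0 members in either test.

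Fut1, Fut2 and Car11 are neighbours on chromosome 7 (45617289 to 45704682, mm10), with 27.5 kb between Fut1 and Fut2 and 33.4 kb between Fut2 and Car11. Among the 55 members with coordinates, no others lie within 1 Mb of each other. Between them Izumo1 and Mamstr stood lower with BOM at 10 d too, with IFNg by -3.34 (adjusted p = 0.00461) and -1.14 (adjusted p = 0.0143), while Rasip1 passed without IFNg (-0.93, adjusted p = 0.0397) and not with it (-0.35). In the same stretch A030001D20Rik did not pass without IFNg (0.21) or with it (0.05), and Gm45437, Sec1 and Ntn5 were not tested. Fut1 and Fut2 are related in sequence, as is Sec1 beside them, so reads may be shared among their counts. In tumors Fut1 fell in both comparisons (-0.56 and -0.53) and Fut2 against vehicle (-0.63).

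Among LSD1 and its known partners, 3 of 16 tested genes fell with BOM in culture with IFNg: the corepressor gene Rcor2 (-1.54), Kdm1a (-0.40) and Hdac2 (-0.31). Against vehicle tumors 2 of 16 fell, Rcor2 (-1.14) and Kdm1a (-0.23), and 5 rose, among them Gfi1 (0.54) and Insm1 (0.41). With anti-PD1, 4 fell and 2 rose. Of 25 neuroendocrine genes tested in culture with IFNg, 7 fell, among them Dll3 (-1.14), and 6 rose, among them Scg2 (2.72). In tumors 14 of 23 fell and 3 rose against vehicle, and 11 fell and 3 rose with anti-PD1, with Neurod1 (-1.52 and -1.98) and Elavl4 (-1.50 and -1.92) among the falls in both. The medians of this list were 0.00 in culture with IFNg and -0.52 in both tumor comparisons. Over all genes tested, 10.1% fell and 13% rose in culture with IFNg. The shares over all genes were 8.63% and 5.9% against vehicle, and 16.6% and 15.8% with anti-PD1.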

How the data were processed

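RNA was sequenced from cultures at 96 h and 10 d and from tumors. RNA was extracted with TRIzol and libraries were made with a NEBNext Ultra kit, which does not mark the strand, per the labels' protocols. The submitters' processing notes name bcl2fastq, FastQC 0.11.9, STAR 2.7, featureCounts, Subread 2.0 and mm10, while the annotation and counting settings are not given in the sources used here. The authors deposited whole-number counts per gene in 3 tables, each normalized here separately.

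Counts were filtered with filterByExpr, normalized by TMM and compared in edgeR 4.0.16 (R 4.3.3) by its quasi-likelihood test, with Benjamini-Hochberg adjustment over all genes tested and a threshold of 0.05. All groups of a table shared one fit, and the 96 h fit had the cell line as a block. DESeq2 1.42.0 and limma 3.58.1 (voom), other scalings and filters, a replicate block and leaving out each library were alternatives. CPM values are counts over the library total. The comparison with IFNg in culture, the 96 h comparison and the 2 tumor comparisons share no library. The tumor pairs share a spread estimate, and the comparison with IFNg shares its estimate with the libraries that chose the members. Fitted on only the groups compared, the one with IFNg gave 47 members lower, among 1269 genes lower and 1808 higher. On simulated data, 86 of 100 genes changed 2-fold were found at 96 h and 94 at 10 d with IFNg. Against vehicle 98 were found, and with anti-PD1 96. In the same order, false calls were 6, 4, 6 and 10 among 13321, 14874, 14368 and 14345 genes. The simulation gave all genes of a table the same spread and changed only genes with a mean of at least 4 CPM. None of its shares can thus be read as the power on the measured data, at any time or in tumors. At 96 h the members' differences also varied by line. There the lowest fitted log2 fold change of a member was -2.08, and no member passed edgeR's test (lowest adjusted p = 0.293).

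The members and gene lists were chosen with earlier results of these data known, and the role groups and the hypoxia list after the members were seen. The named-gene rule took members by ratio, level, nearness to the threshold and lowest p per comparison. Members outside it that are named were chosen after their values were seen. Coordinates are from GENCODE M21, which held 55 of the 58 gene IDs. The 96 h samples pair by cell line. Same-numbered libraries had deviations correlated from 0.0584 to 0.23 in the culture comparison with IFNg, and from -0.242 to 0.0144 and -0.123 to 0.439 in the tumor pairs, so the numbers were not taken to pair them. Between DMSO without and with IFNg all 3 were above 0.1 (0.119 to 0.393). No libraries were alike within sampling noise.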

Additional observations from a re-analysis of the deposited data

Results flagged for a closer look

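In 116 groups of 4 or 5 tumors, 7 values lay far from the rest of their group by Dixon's criterion, and chance flags about 1 in 20 groups. Il10ra had 17.98 CPM in BOM tumor 3, with the other BOM tumors at 7.82 to 9.38, and 27.53 CPM in vehicle tumor 1, with the others at 4.95 to 9.96. Akna had 17.78 CPM in vehicle tumor 1 against 10.1 to 11.6. In BOM plus anti-PD1 tumor 3, Cdk6 had 108.5 CPM against 42.5 to 50.01 and Vwf 155.3 CPM against 90.6 to 101.5. Myo1h had 20.66 CPM in anti-PD1 tumor 2 against 13.6 to 15.2. Htr3a had 13.89 CPM in BOM tumor 1, where the other BOM tumors lay closely together at 15.55 to 15.67.

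For Chd3, Slit1 and Chrnd the groups did not overlap in culture with IFNg, where BOM stood lower, or against vehicle tumors, where it stood higher. With anti-PD1 those of Chd3 and Chrnd did not overlap and those of Slit1 did. The log2 fold changes in tumors were 0.3778 and 0.3964 for Chd3 (without and with anti-PD1), 0.5864 and 0.7162 for Chrnd, and 0.5926 for Slit1 without anti-PD1. The difference between culture and tumors was not tested.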

How the results depend on the processing

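Among the 32 members taken by the named-gene rule, no called result reversed under any alternative run. The uncalled fold changes of Rrh and Arhgap33os in culture with IFNg crossed 0 in some. Over the fold changes of the 32, 2315 kept their sign and call, 48 lost a call, 34 gained one and 26 uncalled ones changed sign. Counts and medians stayed close to the reported values in 448 cases and moved in 33. Close was a wide band, since 19 members lower against vehicle with limma voom counted as close to 27. At 96 h DESeq2 called 1 gene lower and 49 higher, limma voom 1 member lower among 2 genes lower and 28 higher, library size alone 2 genes higher, and no filter 9 members lower among 57 genes lower and 253 higher. Leaving out 1 line gave 0 to 7 members lower, 0 to 65 genes lower, 0 to 84 higher and medians of -0.70 to -0.34. In culture with IFNg the median was -2.004 with library size alone. Leaving out 1 library there gave 43 to 50 members lower, 810 to 1632 genes lower, 1285 to 2097 higher and medians of -2.16 to -1.97. Against vehicle, fitting only the groups compared gave 794 genes lower, and leaving out vehicle tumors 1 and 2, an alternative chosen after seeing the data, gave 6 members and 1689 genes higher. Leaving out 1 tumor gave 19 to 30 members lower and 2 to 4 higher, 721 to 1581 genes lower, 422 to 1390 higher and medians of -0.69 to -0.55 against vehicle. With anti-PD1 it gave 23 to 30 members lower and 4 to 6 higher, 1776 to 2398 genes lower, 1891 to 2348 higher and medians of -0.71 to -0.55. The rule gave 60 to 73 members without 1 of its libraries, and 28 at a ratio of 4. The cause of these shifts was not tested.

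With a replicate block, 50 members fell in culture with IFNg (median -2.10), 24 fell and 3 rose against vehicle (-0.60), and 25 fell and 5 rose with anti-PD1 (-0.61). Without the line as a block, 0 members passed at 96 h (-0.44). Under the block Car9 passed in culture with IFNg (adjusted p = 0.00525) and Gabrd did not with anti-PD1 (adjusted p = 0.0536). The 96 h fit has 2 residual degrees of freedom.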
